A study of Mus musculus with 28 samples.

Results

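Peritoneal macrophages of ATF7 knockout mice were compared with those of wild-type mice, neither of which had received an injection. The comparison used 8 of the 28 arrays of the series, chosen by sample title, 4 per genotype from independent experiments, and covered 13526 genes. The knockout mice carried the ATF7 deletion in a C57BL/6 background and the wild-type mice were C57BL/6. The part of Atf7 that was removed, whether littermates were used, and the ages of uninjected mice were not given in the sources used here. Resident macrophages were washed out of the peritoneum without an eliciting agent, kept overnight in serum-free medium and rinsed of non-adherent cells before RNA was extracted. The other 20 arrays were of wild-type C57BL/6 mice, 4 arrays each, injected into a vein with PBS (saline), LPS (lipopolysaccharide), PGN (peptidoglycan), IMQ (imiquimod) or BG (beta-glucan) 3 weeks earlier and 10 to 12 weeks old at analysis. They are used here only to ask whether a difference between knockout and uninjected wild type was also seen against other wild-type mice.

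ATF7 is a leucine zipper transcription factor of the ATF/CREB family that binds cyclic AMP response elements. In unstressed cells it is known to recruit histone H3 lysine 9 methyltransferases such as G9a (Ehmt2) and to keep target genes low, and stress kinases release it. Large peritoneal macrophages, the main resident macrophages of the cavity, are known for the transcription factor Gata6, which retinoic acid from the surrounding tissue induces, and for self-renewal by local division.

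Each value below is a log2 signal of a probe set, each difference is knockout minus wild type on that log2 scale, and a gene was called where limma's Benjamini-Hochberg adjusted p over all 13526 genes was below 0.05. A log2 signal of 6.32 marked the background, set by the 95th percentile of odorant and vomeronasal receptor probe sets. Signals of different probe sets are not comparable with each other. The array has probes for fixed parts of each gene, so closely related genes such as the Ifit, Phf11, Naip and ribosomal protein families can share signal. Arrays of one genotype correlated at 0.9917 to 0.996 in the knockout and 0.9889 to 0.9955 in wild type, and knockout with wild-type arrays at 0.9708 to 0.9899. The lowest correlation within wild type was below the highest between genotypes, so these ranges overlap.

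Atf7 itself was measured by 2 probe sets and was lower in the knockout on both. Probe set 10433032 read 7.09, 7.09, 7.19 and 6.94 in the knockout, against 10.03, 9.90, 10.09 and 9.85 in wild type, which is 7.40-fold lower in the knockout (log2 difference -2.89, limma adjusted p = 1.74e-19). Probe set 10433034 read 10.25, 10.26, 10.34 and 10.27 in the knockout, against 10.64, 10.79, 10.80 and 10.68 in wild type, which is 1.36-fold lower (log2 difference -0.45, limma adjusted p = 7.69e-08). These p-values are adjusted over all 14815 probe sets kept. On both probe sets all knockout arrays lay below all 24 wild-type arrays of the series, whose lowest values were 9.65 and 10.37. The knockout signal stayed above background on both. Of 22 ATF/CREB family genes tested, 8 were called higher in the knockout and 3, Atf7 included, lower. Against LPS-injected mice 5 were higher and 3 lower, against PBS 6 each way, and against PGN, IMQ and BG more were lower (5 and 6, 5 and 6, 3 and 9). Atf6b, a sensor of protein folding stress in the endoplasmic reticulum, read 9.80, 9.83, 9.77 and 9.85 in the knockout and 9.41, 9.41, 9.49 and 9.56 in wild type, a log2 difference of 0.34 that held against all 6 wild-type groups. Batf2 (log2 difference 0.49), an interferon-inducible partner of JUN proteins, Atf3 (0.36), a stress-induced repressor, and Creb3 (0.31) also rose. The closest relatives of ATF7 were not called: Atf2 differed by 0.06 (limma adjusted p = 0.396) and Creb5 by 0.20 (limma adjusted p = 0.384).

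**Figure D1:**
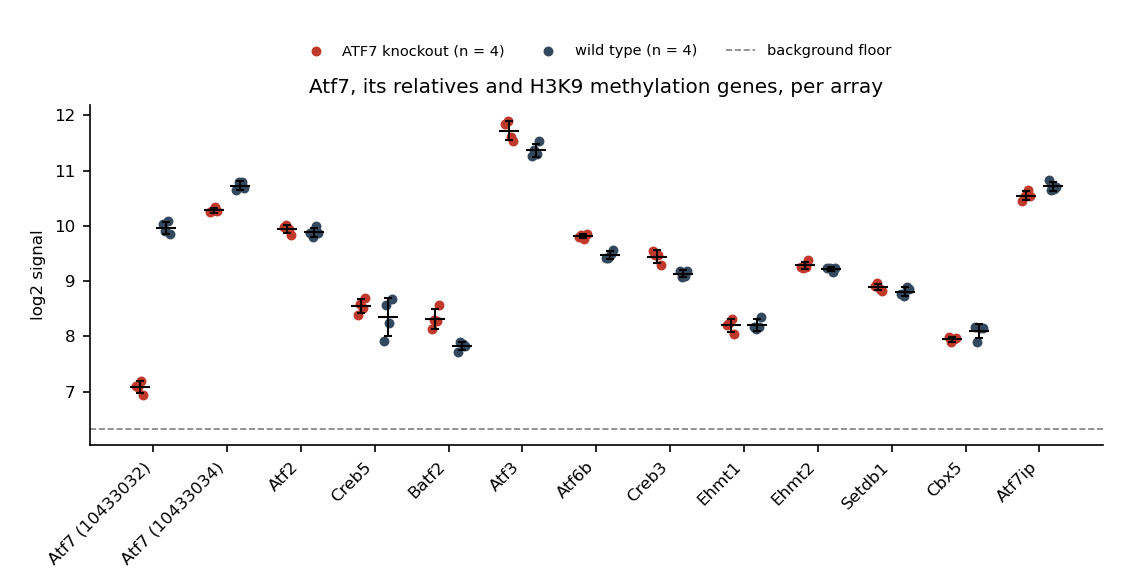
Log2 signals (y axis) of the 2 Atf7 probe sets, 6 ATF/CREB relatives and 5 genes of histone H3 lysine 9 methylation (x axis), 4 knockout arrays at the left and 4 wild-type arrays at the right of each gene. Black bars are the mean and 1 SD and the dashed line is the background floor of 6.32; the first Atf7 probe set lies near 7 in the knockout and near 10 in wild type, while Atf2, Ehmt1 and Ehmt2 overlap.

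Genes of the enzymes through which ATF7 is known to act were called in small numbers against uninjected wild type. Of 25 genes of histone H3 lysine 9 methylation tested, 2 were called higher and 2 lower, with a median difference of -0.03 against 0.005 over all genes. Among all genes 28.3% were called in either direction. More were lower against injected mice, with 7 lower and 1 higher against PBS, 5 and 2 against LPS, and 8 and 1 against PGN. The counts were 12 and 1 against IMQ, and 6 and 3 against BG. Over all genes, too, lower calls were more frequent against each injected group than against uninjected wild type. A shift toward lower calls is therefore not particular to this list, and whether the list exceeded it was not tested. Against uninjected wild type, with each array centred on its median, 5 of the 25 were lower and 1 higher. When single arrays were left out, 0 to 2 were higher and 1 to 3 lower. Ehmt2 (G9a) read 9.26, 9.23, 9.26 and 9.38 in the knockout and 9.24, 9.24, 9.17 and 9.24 in wild type. Its difference of 0.06 missed the threshold (limma adjusted p = 0.297), as did Ehmt1 (-0.01, adjusted p = 0.952), Setdb1 (0.08, adjusted p = 0.226) and the heterochromatin protein gene Cbx5 (-0.14, adjusted p = 0.15). Atf7ip, which encodes the partner protein of Setdb1, was slightly lower in the knockout at 10.46, 10.54, 10.64 and 10.54, against 10.83, 10.66, 10.67 and 10.69 in wild type (log2 difference -0.17, limma adjusted p = 0.00752).

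Across the whole array 3828 genes were called, which is 28.3% of those tested. Of these, 2386 were higher in the knockout (17.6%) and 1442 lower (10.7%). Most changes were small: the median size of a called change was 0.26, 1128 genes rose and 773 fell by at least 1.2-fold, 218 rose and 199 fell by at least 1.5-fold, and 54 rose and 58 fell by at least 2-fold. In 2433 genes the call held whichever single array was left out. The 4 knockout and 4 wild-type arrays did not overlap in 2958 genes (21.9%), of which 2646 were called. Genes named below for large changes, in all or in a list, were picked among those without overlap. In them the lack of overlap is no further result. An exact permutation test of 4 arrays against 4 cannot give a two-sided p below 0.0286, so single genes rest on the fit over all genes.

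**Figure D2:**
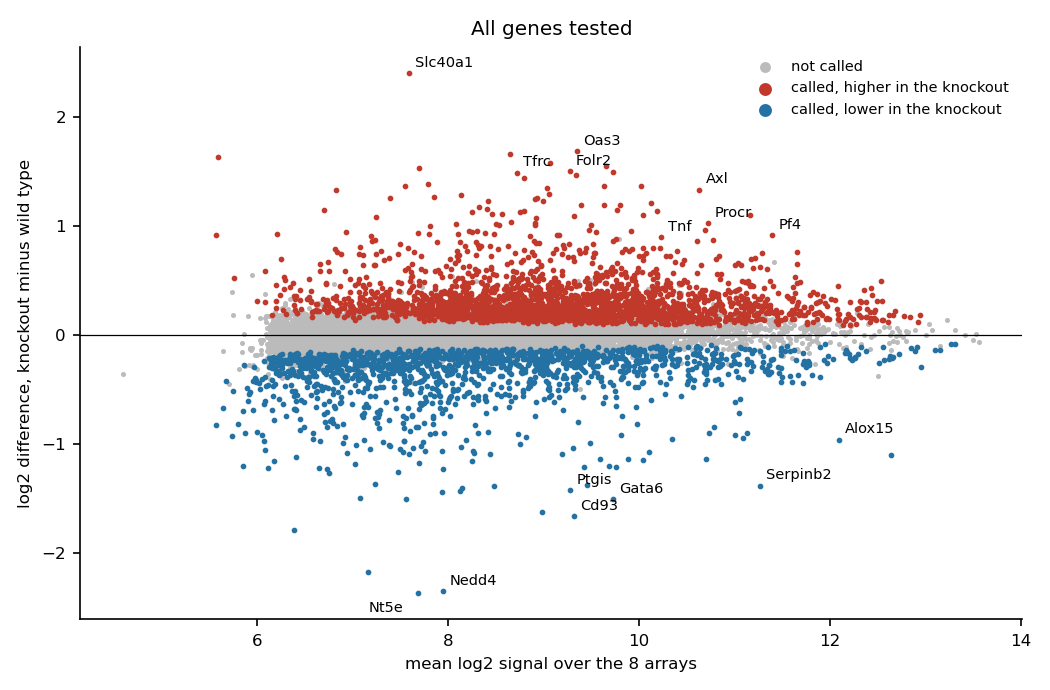
Log2 difference, knockout minus wild type (y axis), against the mean log2 signal over the 8 arrays (x axis) for all 13526 genes, with called genes in red (higher in the knockout, 2386) and blue (lower, 1442). Named points are genes described in the text; the median size of a called change is 0.26.

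Interferon-stimulated genes made up the list with the most members called higher of the 48 examined. Of 45 interferon-stimulated genes tested, 42 were called higher in the knockout and 0 lower, 35 of them by at least 1.5-fold, with a median difference of 0.87 against 0.005 over all genes. The mean level over the list was 9.55, 9.94, 9.75 and 10.33 in the knockout arrays, against 8.81, 8.99, 8.98 and 9.23 in the wild-type arrays. The lowest knockout array was thus above the highest wild-type array, and knockout replicate 4 was the highest of all. Ifit3, which binds foreign RNA together with its family members, read 9.95, 10.55, 10.15 and 11.08 in the knockout and 8.46, 9.13, 8.68 and 9.27 in wild type (2.93-fold higher, limma adjusted p = 6.64e-05). Oas3, which makes the oligoadenylate that switches on RNase L, read 9.60, 10.34, 9.94 and 10.93 in the knockout and 8.03, 8.63, 8.25 and 9.13 in wild type (3.23-fold higher, limma adjusted p = 6.8e-06). In both genes the genotypes did not overlap and knockout replicate 4 was highest. Rsad2 (viperin) was 2.54-fold, Ifit1 2.77-fold and Ifit2 3.17-fold higher in the knockout.

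The interferon difference had the same sign against each injected wild-type group. The list's median difference was 0.85 against PBS, 0.62 against PGN, 0.56 against IMQ, 0.51 against BG and 0.33 against LPS, and 14 of the 45 genes were called higher in the knockout against all 6 wild-type groups. The share of all tested genes that were called higher in all 6 was 3.22%. The comparisons with the 6 groups share the 4 knockout arrays. Dhx58, the RNA sensor LGP2, was one of the 14: it read 9.21, 9.84, 9.53 and 10.26 in the knockout, 8.21, 8.33, 8.40 and 8.71 in wild type, and between 8.21 and 9.35 in all 24 wild-type arrays. Phf11a and Phf11d, interferon-inducible genes of the PHD finger family, were 2.59-fold and 2.35-fold higher in the knockout and also passed in all 6.

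The regulators of this response moved in the same direction. Of 30 interferon regulators, 17 were called higher and 1 lower. Irf7, the factor that amplifies type I interferon, read 10.18, 10.85, 10.50 and 11.37 in the knockout and 9.23, 9.67, 9.34 and 9.84 in wild type (2.31-fold higher, limma adjusted p = 2.66e-05). Stat2 (1.74-fold) and Irf9 (1.28-fold) of the ISGF3 complex, and Irf1 (1.37-fold) and the kinase gene Ikbke (1.36-fold) also rose. Irf2, which encodes an antagonist of IRF1, was 1.13-fold lower in the knockout. Of 8 interferon-gamma-inducible GTPases 6 rose, among them Iigp1 (2.88-fold), Irgm1 (1.80-fold) and Gbp7 (1.79-fold), which act on vacuoles that hold pathogens. This list's median difference was 0.78 against uninjected wild type and 0.01 against the LPS-injected mice. Of 16 genes of MHC class I presentation 15 rose, with Psmb8 (1.79-fold) and Psmb10 (1.53-fold) of the immunoproteasome, its activator subunit gene Psme2 (1.57-fold) and the peptide transporter gene Tap1 (1.71-fold).

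The promoters of a pair of these genes are shown because they carry the element that interferon-activated factors are known to bind. They are RefSeq sequences of build GRCm38.p6 from 250 bases before to 50 after the annotated start, 5′ to 3′ on the gene's strand, and capitals mark GAAANNGAA on either strand. Ifit3 lies at chr19:34583279-34583578 on the plus strand and Oas3 at chr5:120777610-120777909 on the minus strand.
Ifit3: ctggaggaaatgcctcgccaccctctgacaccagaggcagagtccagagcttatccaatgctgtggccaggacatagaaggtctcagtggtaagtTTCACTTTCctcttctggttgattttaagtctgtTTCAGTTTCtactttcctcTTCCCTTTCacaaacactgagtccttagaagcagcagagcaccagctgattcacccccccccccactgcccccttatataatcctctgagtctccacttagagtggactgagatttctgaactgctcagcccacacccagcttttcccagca
Oas3: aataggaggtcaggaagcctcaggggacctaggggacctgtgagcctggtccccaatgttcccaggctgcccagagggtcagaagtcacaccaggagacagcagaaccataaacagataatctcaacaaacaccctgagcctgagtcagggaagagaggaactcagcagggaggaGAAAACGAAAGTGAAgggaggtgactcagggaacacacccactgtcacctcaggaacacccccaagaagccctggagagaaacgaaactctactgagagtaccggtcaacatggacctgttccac
Ifit3 holds 3 separate matches and Oas3 2 that overlap. Over the 32 interferon-stimulated genes with a promoter in the RefSeq table, 15 held GAAANNGAA (46.9%), against 735 of 10720 tested genes (6.86%). The same element was in 8.84% of promoters of all genes higher in the knockout and in 7.64% of those lower.

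The cyclic AMP response element that ATF/CREB proteins are known to bind is TGACGTCA. It was present in 3.25% of promoters of genes higher in the knockout, 2.93% of those lower and 3.08% of all tested, and in 0 of the 32 interferon-stimulated genes. Its first 5 letters, TGACG, which lie within it on both strands, were in 32.6% of promoters of higher genes, 27.6% of lower genes and 30.1% of all tested. No match says only that these letters are not in this window. Of the named genes called, Btg2, Ltbp1, H2-Aa (log2 difference -0.38) and Atg16l2 (-0.20), which fell, and Cycs (0.33) and Atg5 (0.21), which rose, carry the element in full. As examples the promoters of Btg2 (chr1:134079106-134079405, minus strand), an antiproliferative immediate early gene, and Ltbp1 (chr17:75005279-75005578, plus strand), which encodes a protein that binds latent TGF-beta, are printed with the element in capitals.
Btg2: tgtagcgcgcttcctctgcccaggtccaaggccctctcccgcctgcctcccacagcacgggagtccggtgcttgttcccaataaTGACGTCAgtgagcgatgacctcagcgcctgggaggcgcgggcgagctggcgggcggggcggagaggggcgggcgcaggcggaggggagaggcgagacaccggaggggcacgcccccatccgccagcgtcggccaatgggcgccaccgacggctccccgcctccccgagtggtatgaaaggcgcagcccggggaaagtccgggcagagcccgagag
Ltbp1: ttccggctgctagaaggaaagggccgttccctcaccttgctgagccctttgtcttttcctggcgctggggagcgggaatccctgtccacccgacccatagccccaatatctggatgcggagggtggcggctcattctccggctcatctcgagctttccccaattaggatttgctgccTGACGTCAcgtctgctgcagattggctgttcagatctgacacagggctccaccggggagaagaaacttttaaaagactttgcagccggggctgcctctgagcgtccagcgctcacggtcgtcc
Btg2 read 9.57, 9.58, 9.65 and 9.63 in the knockout and 10.16, 9.89, 10.06 and 9.96 in wild type (1.33-fold lower in the knockout, limma adjusted p = 2.43e-07). Ltbp1 read 9.21, 9.09, 9.32 and 9.62 in the knockout and 10.75, 10.41, 10.46 and 10.19 in wild type (2.21-fold lower in the knockout, limma adjusted p = 5.27e-06). In both genes the groups did not overlap.

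Genes of inflammation changed in both directions, more often upward than downward against uninjected wild type. Of 27 genes of NF-kB signalling and its feedback 10 were called higher and 2 lower, and of 26 cytokine genes 9 were higher and 3 lower. Called in all were 44.4% and 46.2% of these lists, and 28.3% of all genes. Of all genes 17.6% were higher and 10.7% lower, so the lower counts are near or below that share. When knockout replicate 1, knockout replicate 2, wild-type replicate 3 or wild-type replicate 4 was left out, 1 NF-kB gene was lower. Tnf read 10.62, 10.74, 10.51 and 10.86 in the knockout and 9.62, 9.64, 9.84 and 10.04 in wild type, 1.86-fold higher (limma adjusted p = 3.09e-06) and higher against all 6 wild-type groups. Tnfsf10 (TRAIL, 2.12-fold), Il1a (1.74-fold) and Pdgfb (1.69-fold) rose as well. Il1b went the other way, at 7.34, 7.28, 7.96 and 7.16 in the knockout and 8.31, 8.11, 8.19 and 8.41 in wild type (1.77-fold lower in the knockout, limma adjusted p = 0.000435). Il1b was called lower against only 2 of the 6 wild-type groups. Hgf, a growth factor for epithelia, was 2.58-fold lower, with 3 of 4 knockout arrays above background. Of 22 chemokine genes 3 rose, Pf4 (1.89-fold), Ccl4 (1.65-fold) and Ccl3 (1.22-fold), and 6 were called without wild-type replicate 4. These 3 are 13.6% of the list, and 17.6% of all genes were called higher. Against PGN- and BG-injected mice more chemokine genes were lower than higher (4 against 3, and 5 against 3), as was so over all genes. Cxcl2 differed by 0.38 and missed the threshold (limma adjusted p = 0.0548).

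Sensors of microbes changed in both directions, 11 of 40 higher and 7 lower, and against the injected groups from 14 higher and 2 lower (BG) to 7 and 14 (PGN). Tlr1, the partner of TLR2 for bacterial lipopeptides, read 9.47, 9.79, 9.50 and 9.76 in the knockout and 8.67, 8.43, 8.87 and 8.87 in wild type (1.89-fold higher, limma adjusted p = 1.02e-07), and the kinase gene Irak2 was 1.53-fold higher. Both passed against all 6 wild-type groups. Tlr3 (1.5-fold) and Casp4 (1.44-fold) rose, while the flagellin sensor genes Naip5 (1.35-fold) and Naip6 (1.23-fold) and Nlrp3 (1.23-fold) fell. Slc15a2, which encodes a transporter of bacterial peptides, lay below background in all knockout arrays, at 5.07 to 5.92, against 6.87 to 8.07 in wild type, and was at least 1.96-fold lower in the knockout. Here and below, "at least" sets the higher group's mean against the background floor. Tlr4, the LPS receptor, differed by -0.03 (limma adjusted p = 0.837).

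Genes of large peritoneal macrophages were more often lower than higher, except against BG-injected mice. Of 33 genes known for these cells 17 were called lower in the knockout, 11 of them by at least 1.5-fold, and 3 higher, with a median difference of -0.29. Against PBS-, LPS-, PGN- and IMQ-injected mice 14 to 23 were lower and 2 to 4 higher, but against BG-injected mice 7 were lower and 8 higher, with a median of -0.05. Gata6 read 9.07, 8.74, 9.25 and 8.83 in the knockout and 10.81, 10.55, 10.41 and 10.17 in wild type, so that it was 2.85-fold lower in the knockout (limma adjusted p = 8.55e-10). Its groups did not overlap, and the gene was lower against all 6 wild-type groups. The mean in BG-injected wild-type mice was 9.41, nearer to the knockout than the other wild-type means of 10.34 to 10.51. Nt5e, the ecto-enzyme CD73 that makes adenosine, read 6.35, 6.25, 6.89 and 6.52 in the knockout and 9.50, 8.78, 8.80 and 8.41 in wild type (5.18-fold lower in the knockout, limma adjusted p = 2.2e-08). The knockout values lie about the background floor of 6.32, with 3 of 4 arrays above it, so the level there is poorly measured. Cd93 (3.17-fold), a receptor in the uptake of dying cells, and Serpinb2 (2.61-fold), an inhibitor of plasminogen activators, fell too. The integrin gene Itga6 read 10.25, 10.11, 10.31 and 9.87 in the knockout and 11.51, 11.31, 11.23 and 11.05 in wild type (2.21-fold lower in the knockout, limma adjusted p = 4.3e-10).

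Some genes of resident peritoneal macrophages did not follow that direction. The endothelin receptor gene Ednrb (1.63-fold) and the ficolin gene Fcna (1.83-fold) rose and passed against all 6 wild-type groups. Timd4, a phosphatidylserine receptor, read 11.71, 11.61, 11.74 and 11.93 in the knockout and 11.17, 10.89, 11.21 and 11.03 in wild type. Those arrays do not overlap, yet its difference of 0.67 missed the threshold in the fit that shares its spread with the injected groups (limma adjusted p = 0.0872). In a fit of the 8 arrays alone it passed (adjusted p = 0.000219). Among the general macrophage genes, Csf1r differed by -0.01 (limma adjusted p = 0.839) and Spi1 by 0.06 (limma adjusted p = 0.339), while Adgre1, which encodes F4/80, was 1.13-fold and Itgam 1.19-fold lower. The mean of 10 macrophage markers was 11.63 to 11.69 in the knockout and 11.48 to 11.62 in wild type. Yet 3 of the 10 were called higher and 3 lower, with a median difference of -0.009. Only Fcgr1 (log2 difference 1.16) rose by at least 1.5-fold, and it weighs on that mean.

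Markers known from macrophages of other tissues were more often higher than lower. Of 26 tested, 16 were called higher and 0 lower, 13 of them by at least 1.5-fold, with a median difference of 0.61. Folr2, the folate receptor of many tissue macrophages, read 9.84, 10.28, 9.71 and 10.29 in the knockout and 8.06, 8.71, 8.48 and 8.84 in wild type (2.84-fold higher, limma adjusted p = 1.42e-07). Siglec1, the sialic acid receptor CD169, read 10.03, 10.33, 10.48 and 11.07 in the knockout and 8.59, 8.99, 8.90 and 9.46 in wild type (2.81-fold higher, limma adjusted p = 1.49e-06). Mrc1, the mannose receptor, was 2.62-fold higher in the knockout and higher against all 6 groups. The list's median difference was 0.21 to 0.45 against the 5 injected groups, with 10 to 15 members higher and 1 to 3 lower. When knockout replicate 3 or 4 or the wild type's replicate 4 was left out, and with arrays centred on their medians, 1 member was lower. Cd5l, a secreted lipid-binding protein gene of resident macrophages, was 2.59-fold higher.

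**Figure D3:**
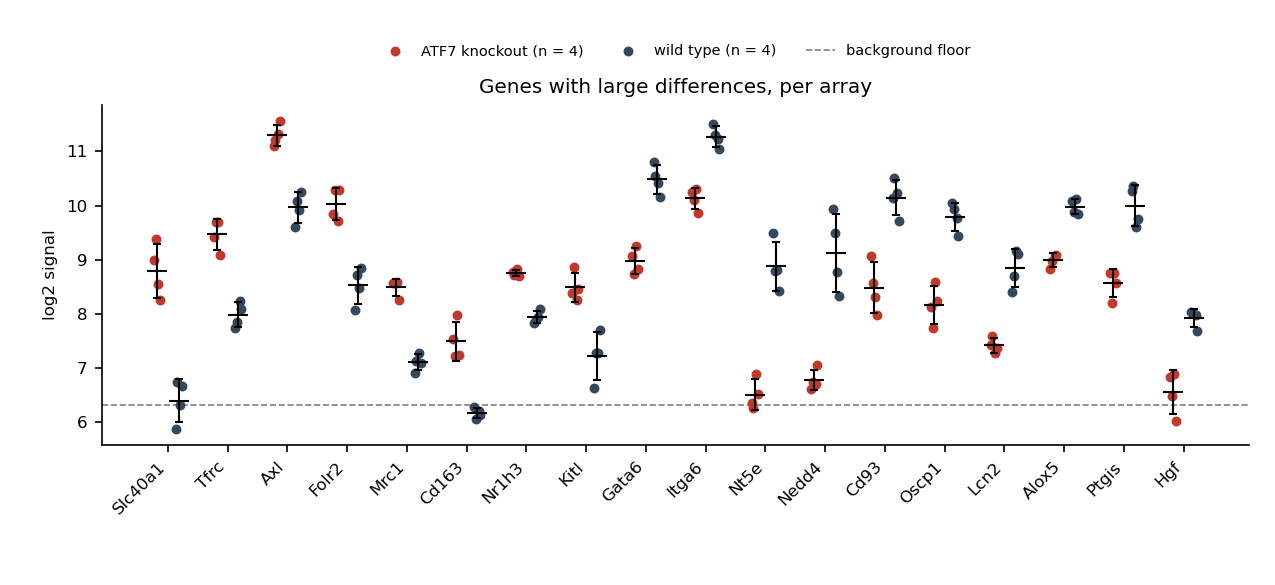
Log2 signals (y axis) of 18 genes (x axis), 4 knockout arrays at the left and 4 wild-type arrays at the right of each gene, with the mean and 1 SD in black and the background floor dashed. The first 8 genes lie higher and the last 10 lower in the knockout. In none do the arrays of the genotypes overlap, which the rule for naming genes by size of change asked for.

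Uptake receptors and iron genes held some of the largest rises. Slc40a1, the iron exporter ferroportin, read 8.998, 9.38, 8.54 and 8.26 in the knockout and 5.87, 6.73, 6.31 and 6.66 in wild type (limma adjusted p = 9.89e-07). It was 5.29-fold higher by the means, but only 2 of the 4 wild-type arrays were above background. Tfrc, the transferrin receptor that brings iron in, read 9.42, 9.69, 9.69 and 9.08 in the knockout and 7.73, 7.85, 8.24 and 8.09 in wild type (2.81-fold higher, limma adjusted p = 1.41e-08). Both passed against all 6 wild-type groups, and for Tfrc all 4 knockout arrays lay above all 24 wild-type arrays, which 2.32% of all genes did. Cd163, the haemoglobin receptor, read 7.21 to 7.98 in the knockout and 6.05 to 6.28 in wild type, below background there, and was at least 2.25-fold higher. Lcn2, which sequesters bacterial siderophores, was 2.70-fold lower in the knockout and lower against all 6 groups. Of 31 iron and haem genes 14 were called higher and 4 lower, and 2 were lower without wild-type replicate 1. With all arrays 58.1% of this list was called, and 28.3% of all genes.

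Axl, a receptor tyrosine kinase that clears apoptotic cells and dampens interferon signals, read 11.10, 11.21, 11.31 and 11.57 in the knockout and 9.60, 10.09, 9.92 and 10.26 in wild type (2.52-fold higher, limma adjusted p = 1.31e-08). No wild-type array of the series exceeded 10.75. Its ligand gene Gas6 was 2.0-fold higher, and Mertk, the related receptor, 1.16-fold. The bridging protein gene Mfge8 was 1.29-fold lower. Of 38 uptake and scavenger receptor genes 13 were called higher and 6 lower. Against LPS- and BG-injected mice more were higher than lower as well (11 and 8, 12 and 8), but the direction turned against PBS (9 and 10), PGN (6 and 13) and IMQ (7 and 12).

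Genes of eicosanoid synthesis changed in both directions. Of 28 tested 9 were called higher and 5 lower, as were 8 and 5 against LPS-injected mice, but against the other 4 groups more were lower (4 or 5 higher, 6 to 8 lower). The prostaglandin genes Ptgs2 (1.72-fold), the inducible cyclooxygenase, Ptges (1.58-fold), the prostaglandin E synthase, and Pla2g4a (1.5-fold), which frees arachidonic acid, rose. The lipoxygenase gene Alox5 read 8.82, 8.97, 9.07 and 9.09 in the knockout and 10.08, 9.89, 10.12 and 9.84 in wild type (1.99-fold lower in the knockout, limma adjusted p = 3.35e-08), and Alox15 was 1.95-fold lower. Ptgis, the prostacyclin synthase, read 8.75, 8.20, 8.76 and 8.57 in the knockout and 10.28, 10.36, 9.61 and 9.75 in wild type (2.69-fold lower in the knockout, limma adjusted p = 7.25e-08). Alox5, Alox15 and Ptgis passed against all 6 groups.

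Genes of coagulation, matrix and proteases changed as often in one direction as in the other, 15 of 44 each way. Called in all were 68.2% of the list and 28.3% of all genes. Mmp13 (2.37-fold), a collagenase, Procr (2.04-fold), the protein C receptor, and Plau (2.02-fold), urokinase, rose. F5, coagulation factor V, was 2.60-fold lower. Vcan, a matrix proteoglycan, lay near or below background in the knockout at 5.77, 5.99, 6.37 and 6.16, against 9.28, 7.86, 8.24 and 7.63 in wild type, and no fold is given for it.

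Other genes also had large falls. Nedd4, a ubiquitin ligase, read 6.62, 6.73, 6.71 and 7.05 in the knockout and 9.94, 9.48, 8.77 and 8.33 in wild type (5.12-fold lower in the knockout, limma adjusted p = 9.69e-08), and no wild-type array of the series was below 7.96. Oscp1 (3.09-fold) and Serpinb10 (2.62-fold) were also lower against all 6 groups. All 4 knockout arrays lay below all 24 wild-type arrays in 2.51% of genes, and genes called lower against all 6 groups made up 3.92%. Among further rises, Kitl, the stem cell factor gene (2.41-fold), and Scimp, an adaptor of Toll-like receptor signalling (2.43-fold), passed against all 6. Akr1b8, an aldo-keto reductase gene, was 2.99-fold higher than in uninjected wild type, but its mean of 9.86 was level with that of 9.87 in BG-injected mice.

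Transcription factors of macrophages changed in 16 of 37 cases, 8 each way, against 28.3% called among all genes. The balance was even against BG-injected mice too (9 each way), but 3 were higher and 12 lower against PBS, 6 and 10 against LPS, 5 and 12 against PGN, and 7 and 13 against IMQ. Over all genes lower calls outnumbered higher ones against PBS, PGN and IMQ as well, but not against LPS. Nr1h3, the oxysterol receptor LXR-alpha, read 8.77, 8.72, 8.83 and 8.69 in the knockout and 7.83, 7.89, 7.94 and 8.09 in wild type (1.76-fold higher, limma adjusted p = 3.31e-09). Pparg, a fatty acid receptor, was 1.73-fold higher and Mitf 1.29-fold. Runx3 (1.60-fold), Cebpd (1.37-fold) and the retinoic acid receptor gene Rara (1.23-fold) were lower. The count of higher factors was 5 without wild-type replicate 1 and that of lower ones 5 without knockout replicate 2. Of the immediate early genes Egr2 (1.59-fold) and Fosl1 (1.34-fold) rose and Fosl2 (1.34-fold) fell, out of 6 called higher and 6 lower among 26. When the knockout's replicate 4 or the wild type's replicate 1 was left out, 3 of these were lower. With all arrays 46.2% of the immediate early list was called, and 28.3% of all genes.

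Metabolic lists shifted by small amounts. Of 22 cholesterol synthesis genes 10 were called higher and 0 lower, with a median difference of 0.25, and 8 of them passed against all 6 groups. Cyp51 (1.54-fold), Hsd17b7 (1.5-fold), Fdft1 (1.49-fold) and Msmo1 (1.36-fold) were the largest named. In the list of LXR, PPAR and lipid handling 18 of 45 were higher and 5 lower, with 9 higher without wild-type replicate 1. Of the NRF2 and redox genes 17 of 32 rose, among them Me1 (1.65-fold) and Srxn1 (1.39-fold), and 11 rose without that array. With all arrays 51.1% of the lipid handling list and 53.1% of the NRF2 list were called, and 28.3% of all genes. Asns, asparagine synthetase, read 9.29, 9.61, 9.12 and 9.64 in the knockout and 8.43, 8.22, 8.39 and 8.56 in wild type (2.02-fold higher, limma adjusted p = 4.06e-08). It passed against all 6 groups, while the whole list of ATF4 targets and amino acid genes had 11 of 37 higher and 6 lower. Without knockout replicate 2 that list had 3 lower. With all arrays 45.9% of it was called, and 28.3% of all genes. The hexokinase gene Hk3 was 2.16-fold higher, and Egln3, an oxygen sensor, 2.11-fold lower.

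Genes of oxidative phosphorylation and of the lysosome were more often higher than lower, but not against every wild-type group. Of 52 oxidative phosphorylation genes 28 were called higher and 1 lower, with a median of 0.15, but 17 were higher without knockout replicate 2 and 18 without wild-type replicate 2. Against PBS-injected mice 20 were higher and 7 lower, and against LPS 26 and 6. The direction turned against the other 3 groups, with 11 higher and 17 lower against PGN, 12 and 17 against IMQ, and 8 and 20 against BG. Of 39 lysosome genes 25 were higher and 1 lower, yet against PBS-injected mice 6 were higher and 8 lower. Of 31 genes of autophagosome formation 5 were higher and 7 lower, or 38.7% called, against 28.3% of all genes. Compared with PBS-injected mice 2 were higher and 17 lower, but with BG-injected mice 6 and 4. Over all genes 2426 were higher and 2788 lower against PBS.

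Genes of cell division and of the ribosome were lower. Of 41 mitosis genes 35 were called lower and 0 higher, 20 of them by at least 1.5-fold, with a median difference of -0.57, and 29 passed against all 6 wild-type groups. Ccnb2, a mitotic cyclin gene, read 7.04, 6.96, 7.22 and 7.66 in the knockout and 8.97, 8.56, 8.35 and 8.77 in wild type (2.73-fold lower in the knockout, limma adjusted p = 5.59e-07). Ccna2 was 2.83-fold lower, with 1 of 4 knockout arrays above background, and Anln, needed for cytokinesis, at least 1.33-fold. Of 35 genes of DNA replication 12 were lower and 1 higher, and 6 were lower without wild-type replicate 1. Of 54 ribosomal protein genes 46 were lower and 0 higher by a median of -0.25, none of them by 1.5-fold. With the B cell markers described next as a covariate, 5 mitosis genes and 14 ribosomal protein genes were called lower. Rps12 read 10.36, 10.42, 10.36 and 10.17 in the knockout and 10.88, 10.75, 10.84 and 10.76 in wild type (1.39-fold lower in the knockout, limma adjusted p = 2.79e-06).

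**Figure D4:**
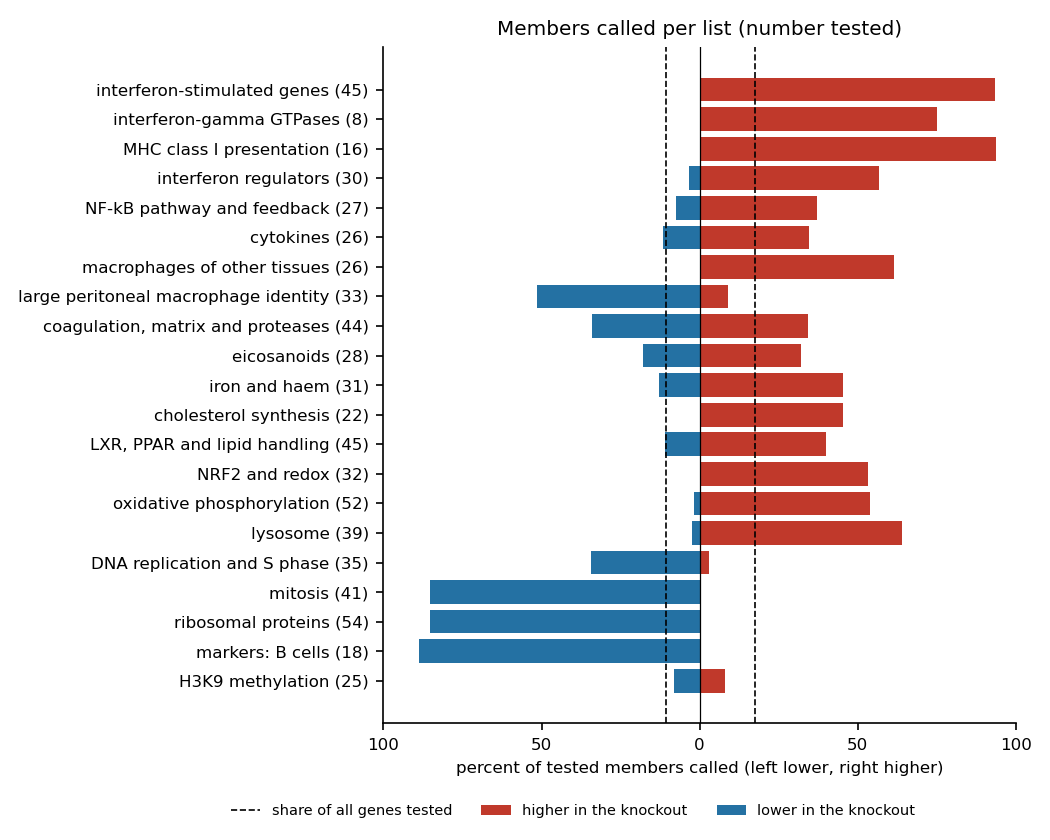
Percent of the tested members of 21 gene lists (y axis, number tested in brackets) called higher (right, red) or lower (left, blue) in the knockout than in wild type. Dashed lines give the shares over all genes tested, 17.6% higher and 10.7% lower; interferon-stimulated and MHC class I genes reach furthest right, and B cell markers, mitosis and ribosomal protein genes furthest left.

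Markers of B cells moved with the genotype too. Of 18 tested, 16 were called lower in the knockout and 0 higher, 15 by at least 1.5-fold, with a median of -1.004, while Cr2, Fcer2a, Jchain and Zcwpw1 were at background. The list's mean level was 7.49, 7.77, 7.62 and 8.02 in the knockout and 8.93, 8.17, 8.72 and 8.64 in wild type, so the groups did not overlap. Cd79a, part of the B cell receptor, read 8.22, 8.96, 8.62 and 9.46 in the knockout and 10.31, 9.49, 10.25 and 10.09 in wild type (2.33-fold lower). The factor gene Ebf1 was 2.40-fold lower. In RNA of whole cell samples, fewer cells of a type and less RNA per cell cannot be told apart.

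With the mean B cell marker level as a covariate in the fit, 686 genes were called higher and 366 lower. In that fit 43 of 45 interferon-stimulated genes were higher, 14 of 16 of MHC class I presentation and 12 of 26 known from macrophages of other tissues. Gata6 (-1.53), Nt5e (-2.40), Nedd4 (-2.02), Cd93 (-2.29), Tfrc (1.58) and Axl (1.28) were still called. In the large peritoneal macrophage list 9 genes were lower, and 1 of DNA replication was lower. Of oxidative phosphorylation 1 gene was higher and of lysosome 3. Of cholesterol synthesis 7 were higher, and 4 each of the lipid handling and NRF2 lists. Akr1b8 (1.09, adjusted p = 0.136), Il1b (-0.85, adjusted p = 0.0878), Ltbp1 (-0.75, adjusted p = 0.0989) and Ccna2 (-1.03, adjusted p = 0.0665) were not called by limma in that fit. Scd1, a fatty acid desaturase gene that was 2.21-fold lower in the knockout, differed by 0.10 in that fit, and Il5ra, 2.27-fold lower with 3 of 4 knockout arrays above background, by 0.17. The genotypes do not overlap in B cell marker level, so marker level and genotype cannot be fully told apart.

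Markers of mast cells and eosinophils, of T and NK cells and of neutrophils formed shorter lists, so their counts are small. Of all genes 28.3% were called in either direction. The neutrophil list and the mast cell and eosinophil list lay above this share, and the T and NK cell list below it. Of 5 mast cell and eosinophil markers 2 were lower, with a mean of 6.69 to 6.88 in the knockout and 7.13 to 7.35 in wild type, and 11 others, among them Kit, Cpa3, Epx and Prg2, were at background. Of 8 T and NK cell markers 1 was higher and 1 lower, with a mean of 7.04 to 7.13 in the knockout and 7.09 to 7.14 in wild type, and Cd3d, Cd3g and Cd4 were at background. Of 6 neutrophil markers Mmp9 was higher and 2 lower, and Ly6g, S100a9 and Elane were at background. Of 19 genes of MHC class II presentation, which macrophages, dendritic cells and B cells share, 3 rose and 4 fell (36.8% called). Without knockout replicate 1 only 2 fell. More were lower against the injected groups, with 2 higher and 10 lower against PBS and 1 and 10 against LPS. The counts were 2 and 10 against PGN, 1 and 11 against IMQ, and 4 and 5 against BG. Lower calls over all genes were also more frequent against each injected group than against uninjected wild type. H2-Ob, known from B cells, was 1.66-fold lower, while Cd74 (-0.12, limma adjusted p = 0.14) and Ciita (-0.12, adjusted p = 0.406) were not called. Genes of monocyte-derived and dendritic cells were lower in 5 of 17 cases, among them Napsa (1.87-fold) and Cd209a (1.79-fold, 3 of 4 knockout arrays above background), and higher in 2. Called either way were 41.2% of this list. The lower count was 3 without knockout replicate 1 and 8 without wild-type replicate 2, and the higher count was 1 when replicate 1 or 2 of either genotype was left out. The single higher T and NK cell call was lost without knockout replicate 3 or wild-type replicate 1, and 1 neutrophil marker was lower when replicate 1 or 3 of wild type, or 1, 2 or 4 of the knockout, was left out. The part of these cells in the genotype's differences was not tested beyond the B cell covariate.

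**Figure D5:**
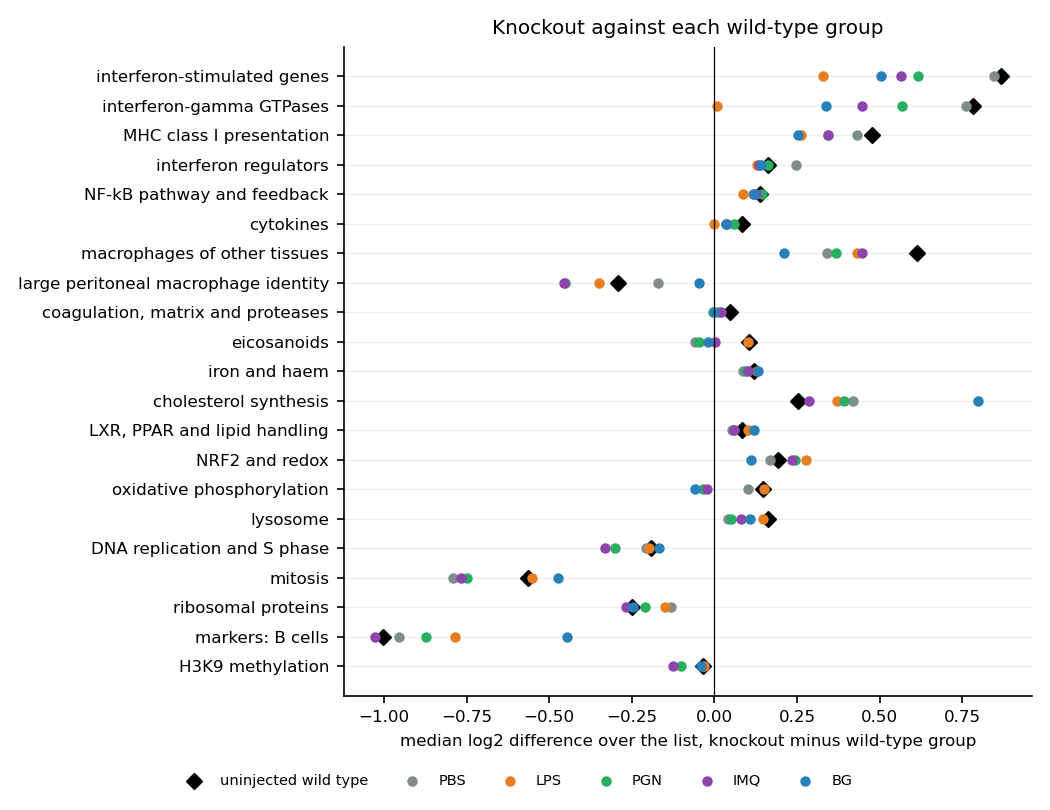
Median log2 difference over each list (x axis), knockout minus each of the 6 wild-type groups, for 21 gene lists (y axis). Black diamonds mark uninjected wild type and coloured points the injected groups; the interferon-stimulated list runs between 0.33 and 0.87 and the mitosis list between -0.79 and -0.47.

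Differences between knockout and uninjected wild type were set against those between LPS- or BG-injected and PBS-injected wild type, with the difference of effects tested in the same fit. The knockout effect differed from the LPS effect in 29.3% of genes and from the BG effect in 29.2%. For the interferon gene Ifit3 the knockout effect was 1.55 and the LPS effect 1.29, a difference of 0.26 that missed the threshold (limma adjusted p = 0.6), and for Irf7 they were 1.21 and 0.90 (adjusted p = 0.377). A p that misses the threshold does not show that these effects are alike. For Gata6 the knockout effect was -1.51 and the LPS effect 0.17 (limma adjusted p of the difference = 3.35e-07), and for Tfrc 1.49 and -0.17 (adjusted p = 2.53e-06). Against BG, Gata6 (-0.93 for BG) and Nedd4 (-0.72) fell less than in the knockout (adjusted p = 0.0114 and 0.000969), whereas for F5 the knockout effect was -1.38 and the BG effect -1.34 (adjusted p = 0.91).

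The neighbours of Atf7 on its chromosome were examined separately. Within 1 Mb of Atf7 40 genes were tested, of which 4 were called higher and 8 lower, 30.0%, against 28.3% of all genes. Of these 12 calls, Tns2, Espl1 and Copz1 were each lost without 1 or more single arrays. On the whole chromosome 29.2% were called. The largest were Gpr84, a receptor for medium-chain fatty acids, at 10.97, 11.28, 11.01 and 11.36 in the knockout and 10.17, 10.10, 10.70 and 10.87 in wild type (1.62-fold higher, limma adjusted p = 0.000315), and the neuropeptide gene Npff (1.43-fold lower). Eif4b (1.27-fold) and Nfe2 (1.32-fold) were also lower.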

How the data were processed

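RNA of adherent peritoneal macrophages was hybridised to Affymetrix mouse gene arrays, 1 array per sample. Signals of the deposited value table are linear intensity values made by the authors with RMA in Affymetrix Expression Console, per the submitters' processing notes; the build behind the probe sets is not given in the sources used here. Log2 was taken here, with no pseudocount and no further scaling of the deposited intensity. Of 35556 probe sets, 21789 had 1 gene symbol in the platform annotation, 1621 several and 12146 none. Probe sets were kept where at least 4 of the 28 arrays exceeded the 95th percentile of 1205 odorant and vomeronasal receptor probe sets (14815 kept), and the brightest stood for its gene (13526 genes). Probe sets of 3 genes (Atxn7l1, Hk1 and Sympk) were called in opposite directions.

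One model over all 28 arrays, with a mean per group and a shared, intensity-trended variance, was fitted in R 4.3.3 with limma 3.58.1. Adjusted p-values are Benjamini-Hochberg over all genes. In data simulated on these arrays, 94.03% of genes shifted by 0.5, 98.51% by 1.0 and 100.0% by 2.0 on the log2 scale were recovered among 13526, with 14 unshifted genes called. The number of arrays limits the precision.

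The comparison, the gene lists and the rules were chosen with earlier results of these data known. Named genes were Atf7; the 15 largest rises and falls among genes called with all arrays and without any 1 array, not overlapping between genotypes and at least 1 log2 unit above background; the 4 largest each way per list; the 10 largest each way called in all 6 comparisons; called genes within 1 Mb of Atf7; and a few genes of prior interest. Predicted genes, odorant receptors and small RNAs are not named. In all, 48 lists were examined. Promoters and neighbourhood come from RefSeq tables (10720 tested genes with a promoter). Alternatives are listed in the closing section.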

Additional observations from a re-analysis of the deposited data

Results flagged for a closer look

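In 15 of 494 groups of 4 arrays (247 named genes, 2 genotypes) a single array lay apart from the other 3, with a gap to its nearest neighbour that took up most of the group's range (Dixon's test). Chance gives about 1 such group in 20. In the knockout, replicate 4 was low for Mrc1 (8.25, others 8.56 to 8.58), Cd24a (7.21, others 7.49 to 7.55), Irf2 (10.62, others 10.69 to 10.71) and Adk (7.45, others 7.89 to 7.95). Knockout replicate 2 was high for Acvrl1 (9.49, others 9.22 to 9.26) and Pcx (8.65, others 8.23 to 8.30). Among wild-type arrays, replicate 2 was low for Cd55 (6.06, others 6.76 to 6.87), Cyp4f18 (7.76, others 8.47 to 8.57), Ndufa4 (8.51, others 8.73 to 8.76) and Cbx5 (7.90, others 8.14 to 8.16). Wild-type replicate 4 was low for Hgf (7.68, others 7.98 to 8.03) and high for Slc29a1 (8.42, others 8.14 to 8.18). Wild-type replicate 3 was low for Cfp (11.39, others 11.54 to 11.55) and Ehmt2 (9.17, others 9.24 for all 3), and wild-type replicate 1 was high for Mcm10 (6.97, others 6.61 to 6.65). Of these 15 genes 13 were called, each also without any single array, and Cbx5 and Ehmt2 were not. The rule for naming genes by size of change asked for such calls, so this is no result about the flagged arrays.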

How the results depend on the processing

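Results were recomputed under other choices of arrays, scaling, filter, probe set, block, covariate and threshold. The counts of genes called higher and lower moved by over 1.5 times in 4 settings. With the B cell marker mean as a covariate they were 686 and 366, with only the 8 arrays 1465 and 944, and with limma's treat at a minimum of 1.2-fold 213 and 188. With PBS-injected in place of uninjected wild type 2426 were higher and 2788 lower. Genes called against all 6 wild-type groups numbered 198 higher and 175 lower with the covariate and 27 and 42 with treat, and could not be computed from the 8 arrays alone. Leaving out 1 array gave 1780 to 2574 higher and 1152 to 1472 lower, 328 to 470 and 407 to 566 against all 6 groups, 2861 to 5006 for the knockout minus LPS effect, 3228 to 4638 for the knockout minus BG effect, and -0.48 to -0.42 for Atf7 on its brighter probe set (-1.67 as the mean of both). Quantile normalisation again gave 1877 and 1949, and centring each array on its median 2187 and 1795.

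Deviations of same-numbered knockout and wild-type arrays from their group means correlated at 0.067, -0.354, 0.097 and -0.086. Differently numbered arrays ranged from -0.341 to 0.394. These few values give no sign of pairing by number. They cannot exclude a shared day or experiment, which the labels do not give. With the replicate number as a block 2386 genes were higher and 1458 lower, and no named gene changed its call.

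Some named genes changed sign, with no cause tested. Against PBS-injected mice Creb3 (-0.0479), Clec12a (-0.0552), Hpgds (-0.18), Srm (-0.0056), Pdk4 (-0.0184), Tpi1 (-0.0044), Mpc1 (-0.12), Cd63 (-0.24), Cd68 (-0.0753), Copz1 (-0.0566) and Zfp385a (-0.0733) were lower in the knockout, and Ndufa6 (0.19) and Csf1r (0.0822) higher. With the B cell covariate Havcr1 (0.0081), Cd22 (0.11), Scd1 (0.10), Slc2a3 (0.0066), Ebf1 (0.0359), Cd79a (0.0587) and Il5ra (0.17) were higher. Cd22, Ebf1 and Cd79a are themselves among the markers averaged into that covariate. Their loss of a difference in that fit is therefore built in and is no result. No other setting reversed a named gene. The covariate ended the call of 113 named genes, treat of 130 and PBS-injected in place of uninjected wild type of 41. Genes near background (log2 6.32) have compressed differences, which limits what their folds can show.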
